A study of Mus musculus with 12 samples.

Results

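The collagen genes of the mouse were followed in stromal cells of the small intestine and the colon. Members were all protein-coding genes of the deposited count table whose symbol is Col, a number, a and a number. This gave 44 genes of the 32052 in the table, and the GENCODE M21 annotation holds the same 44. They comprised 11 fibrillar collagens, 9 FACIT collagens (fibril-associated collagens with interrupted helices), 9 collagens of basement membranes, 9 network-forming collagens, 4 transmembrane collagens and 2 without a class here. Enough counts for a test were found for 38 of the 44, of 16757 genes tested in all. The untested members were Col2a1, Col9a1, Col19a1, Col10a1, Col25a1 and Col26a1, whose totals over the 12 libraries lay between 1 and 87 counts. Col19a1, a FACIT chain, held 61, 17 and 5 counts in GFP-negative small intestine, 4 in 1 GFP-positive colon library and 0 in the other 8 libraries, and it was called lower in GFP-positive small intestine when no filter on low counts was used.

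Collagens are proteins of the extracellular matrix whose chains wind around each other into a rod-like helix. Fibrillar collagens assemble into the fibres that give connective tissue its tensile strength, FACIT collagens coat these fibres, and type IV collagen forms the sheet of basement membranes under epithelia and around vessels, muscle and nerve. Type VI collagen forms beaded filaments that link cells to fibres, type VIII forms lattices near vessels, and transmembrane collagens sit in the cell surface. In the gut wall, fibroblasts are a main source of fibrillar collagen, while smooth muscle, endothelium and glia also make basement membrane chains.

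RNA sequencing was run on total RNA (RNAeasy column, with ZapR to remove ribosomal sequence) from cells lacking Epcam, an epithelial surface protein, and CD45, a leukocyte surface protein. The cells were split by an Rspo3-GFP transgene, a fluorescent reporter for the Wnt amplifier R-spondin 3. The 4 groups were small intestine GFP-negative, small intestine GFP-positive, colon GFP-negative and colon GFP-positive, with 3 libraries each. All groups came from mice on a C57Bl6 background aged 8 to 12 weeks, and the labels name no other allele, treatment or sex and do not describe how the transgene was built. Samples sorted on CD31 are not analysed here. Since the labels do not say that replicates came from separate animals, p-values measure only the spread between these samples, which may be technical.

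Libraries held 6489835 to 12286054 counts. Rspo3 itself measured 2.28 to 13.7 CPM (counts scaled to a common library total with TMM factors) in GFP-negative and 117 to 196 CPM in GFP-positive libraries, so the sort matched its labels. Fibroblast markers (12 genes, 0 of them without counts in any group) summed to 5544 to 38362.5 CPM. Epithelial markers, which the sort should remove, summed to 219 to 731 CPM in GFP-negative and 1.91 to 11.1 CPM in GFP-positive small intestine. In colon these sums were 1008 to 2380 and 307 to 1687 CPM, so epithelial carry-over differed by tissue and GFP state. Lymphatic endothelial markers (7 genes) summed to 200.2 to 589 CPM in GFP-negative small intestine and 4302 to 14985 CPM in GFP-positive, and to 205 to 335 and 18003 to 21049 CPM in colon. Small intestine GFP-negative replicate 2 stood apart in collagens, with 4.90% of protein-coding counts from collagen genes against 2.15% and 2.24% in the other two, and replicate 3 in leukocyte markers, with 2941 CPM against 26.0 to 399.7 CPM in the other 11 libraries. Collagen calls that changed without either library are given with the counts of calls.

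Collagens made up a larger part of the transcripts of GFP-positive than GFP-negative cells in the small intestine, and a smaller part in the colon. On the TPM scale (which divides by transcript length and was rescaled here to protein-coding genes), the collagen share was 0.867%, 1.93% and 0.816% in GFP-negative and 2.44%, 2.29% and 3.24% in GFP-positive small intestine. In colon it was 2.03%, 2.34% and 1.94% in GFP-negative and 1.53%, 1.62% and 1.31% in GFP-positive libraries. The groups did not overlap in either tissue, where an exact permutation test of 3 against 3 cannot give a two-sided p below 0.1. In bulk sorted samples, fewer cells of a type and less RNA per cell cannot be told apart.

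The make-up of the collagen transcripts differed as well. Fibrillar chains took 47.8% to 55.9% of collagen TPM in GFP-negative small intestine and 73.8% to 75.3% in GFP-positive, but 61.3% to 66.1% and 58.9% to 61.1% in colon. Basement membrane chains took 20.6% to 29.2% and 8.61% to 11.3% in small intestine, against 16.3% to 19.5% and 20.95% to 22.6% in colon. Network chains made up 16.1% to 18.2% against 8.95% to 10.2% in the GFP-positive libraries of the small intestine. Their shares were 13.5% to 15.02% and 10.5% to 12.7% in colon. The colon gap of network chains was not seen in shares of collagen counts, which were 15.5% to 17.03% against 14.98% to 17.3%. Col3a1 had the highest TPM of all collagens in every group and ranked 16, 6, 3 and 13 among 18052 protein-coding genes in the order of groups above. Col1a1 was second in each group.

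**Figure D1:**
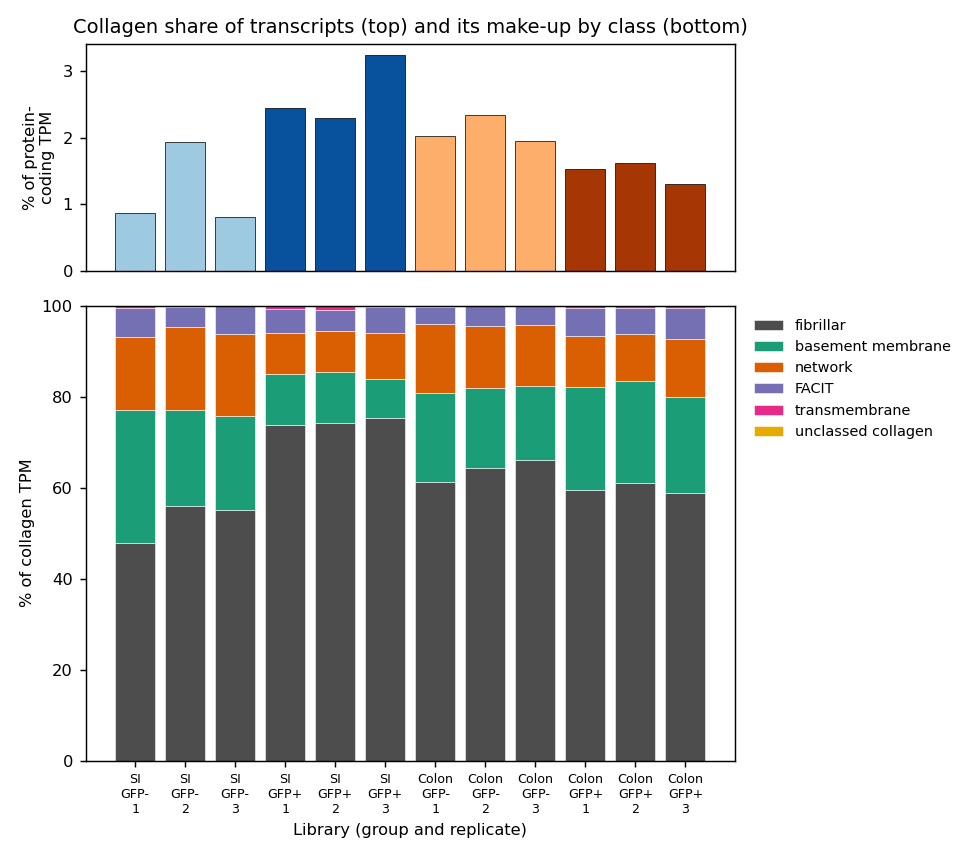
Collagen share of protein-coding TPM in each of the 12 libraries (top, percent) and the division of collagen TPM among classes (bottom, percent). The share lay at 0.816% to 1.93% in GFP-negative and at 2.29% to 3.24% in GFP-positive small intestine, where fibrillar chains filled 73.8% to 75.3% of it.

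In the small intestine 9 collagens rose and 9 fell in GFP-positive cells, of 38 tested (called at a Benjamini-Hochberg adjusted p under 0.05 in edgeR's quasi-likelihood test). Over all tested genes 10.9% were called, 4.24% higher and 6.63% lower. The libraries of the groups did not overlap for 10 collagens that were higher and 12 that were lower, beside 21.9% of all tested genes. That 21.9% was made up of 9.56% of all tested genes that were higher and a larger part that was lower. In colon 5 collagens rose and 11 fell, beside 8.69% of all genes called, 4.62% higher and 4.06% lower. There 7 were higher and 20 lower without overlap, beside 35.6% of all genes without overlap, 17.8% in each direction. The median log2 fold change of the 38 tested collagens was 0.12 in small intestine and -0.62 in colon, against -0.03 over all tested genes in both. The 10.9% and 8.69% called over all tested genes also stand beside the counts of called marker genes given below.

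The same direction was called in both tissues for 9 collagens and opposite directions for 0 (edgeR). That 0 depends on the threshold, since Col5a2 rose in small intestine and narrowly missed a call as lower in colon. Col14a1, Col8a1 and Col23a1 rose in both, and Col27a1, Col12a1, Col22a1, Col6a4, Col6a5 and Col28a1 fell in both. A further 9 were called only in small intestine and 7 only in colon, and 13 tested collagens were called in none of the 5 comparisons. The test of the difference itself (the GFP effect in colon minus that in small intestine) called 7 collagens, all with a lower effect in colon, beside 2.06% of all genes, 1.16% higher and 0.895% lower. At an unadjusted p under 0.05, 4 collagens had a higher effect in colon, and DESeq2 called 3 and limma-voom 0. The collagen median of this difference was -0.86, against 0.04 over all tested genes.

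Between tissues, GFP-positive cells differed in 2 collagens, both lower in colon (4.57% of all genes called, 2.75% higher and 1.81% lower), and 0 higher (edgeR; 3 higher at an unadjusted p under 0.05, 2 by DESeq2 and 0 by limma-voom). Libraries did not overlap for 6 collagens that were higher and 12 that were lower there, beside 24.7% of all genes. GFP-negative cells differed in 9, with 6 higher and 3 lower in colon (4.21% of all genes called, 2.2% higher and 2.01% lower). Libraries did not overlap for 13 collagens that were higher and 10 that were lower in colon, beside 22.6% of all genes. Without small intestine GFP-negative replicate 2, the counts of collagens were 23 for the small intestinal GFP effect (15 higher, 8 lower, 16 of the 18 kept), 15 for the difference of effects and 19 between GFP-negative cells. Without colon GFP-negative replicate 2, the difference of effects was called for 1 collagen and the GFP-negative tissue difference for 4.

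The calls that changed without small intestine GFP-negative replicate 2 were mostly gains of abundant chains. In small intestine Col5a1, Col16a1, Col4a1, Col4a5, Col6a1, Col6a2 and Col6a3 became called higher, while Col6a4 (adjusted p = 0.0592) and Col8a2 (0.0779) were lost. The difference of effects became called for Col1a1 (-2.83, adjusted p = 9.54e-04), Col5a1 (-2.09), Col6a1 (-1.99), Col6a2 (-2.16), Col6a3 (-1.21), Col16a1, Col11a1 (5.73) and Col4a4 (2.26). Between GFP-negative cells, Col1a1 (1.48), Col1a2 (1.67), Col3a1 (1.90), Col5a1 (1.53), Col4a1 (0.91), Col4a2 (0.87), Col15a1 (1.04), Col6a1 (1.15), Col6a2 (1.13) and Col6a3 (0.90) became called higher in colon and Col4a4 (-1.79) lower. Col6a5 was lost there (adjusted p = 0.0816). Without replicate 3 of the same group, the counts were 19, 5 and 7. In small intestine Col5a2 was then lost (adjusted p = 0.0779), and Col13a1 (-2.18, adjusted p = 0.0377) and Col19a1 became called. Col1a2, Col3a1 and Col5a3 lost the difference of effects (adjusted p = 0.0602, 0.0654 and 0.0551), Col11a1 gained it (5.86, adjusted p = 0.0323), and Col5a2 and Col12a1 lost the difference between GFP-negative cells (0.0607 and 0.0912).

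**Figure D2:**
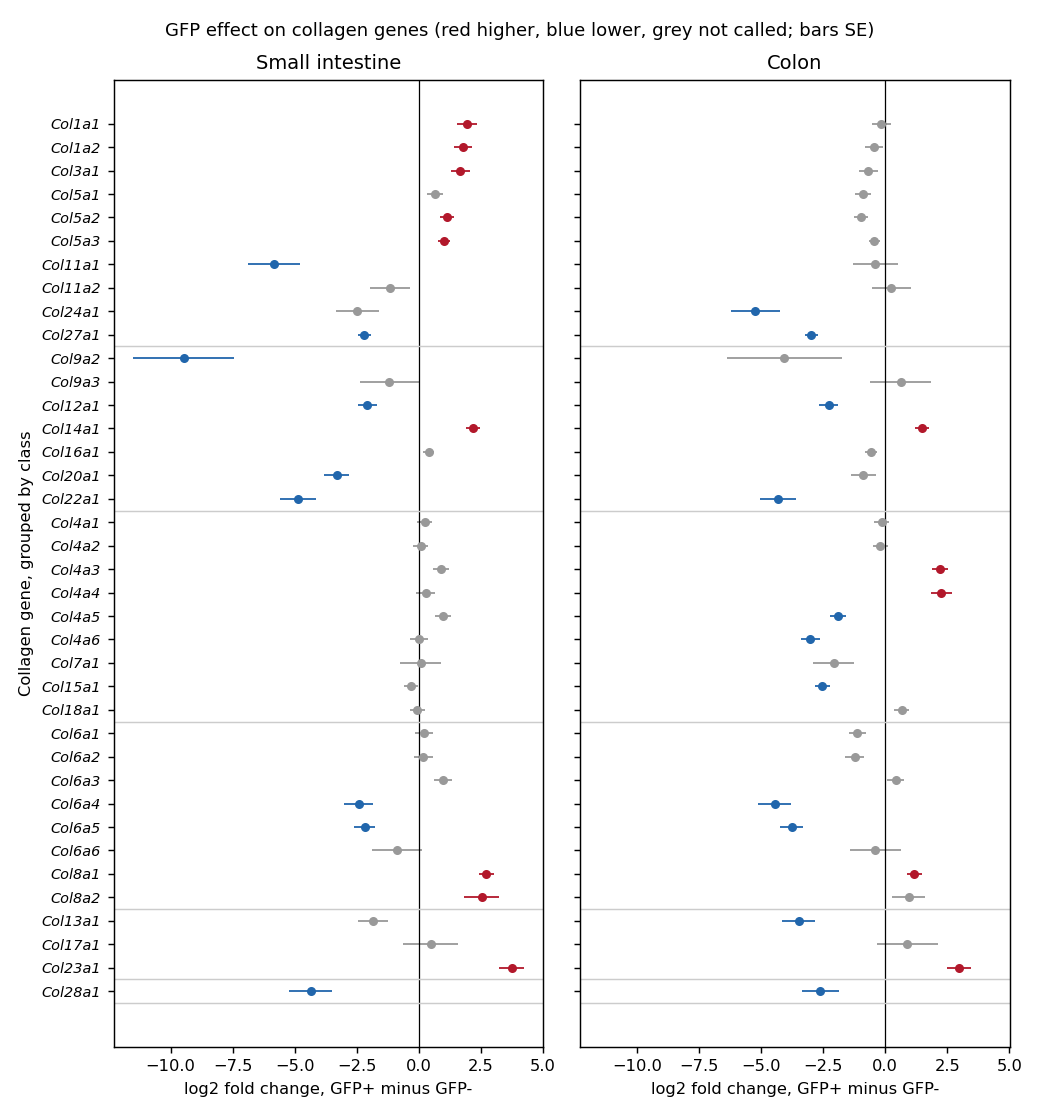
Log2 fold change of the 38 tested collagens, GFP-positive minus GFP-negative, in small intestine (left) and colon (right), 3 libraries a group. Bars are the standard error from the fit over all 12 libraries. Red points rose, blue points fell and grey points were not called, 9, 9 and 20 in small intestine and 5, 11 and 22 in colon.

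**Figure D3:**
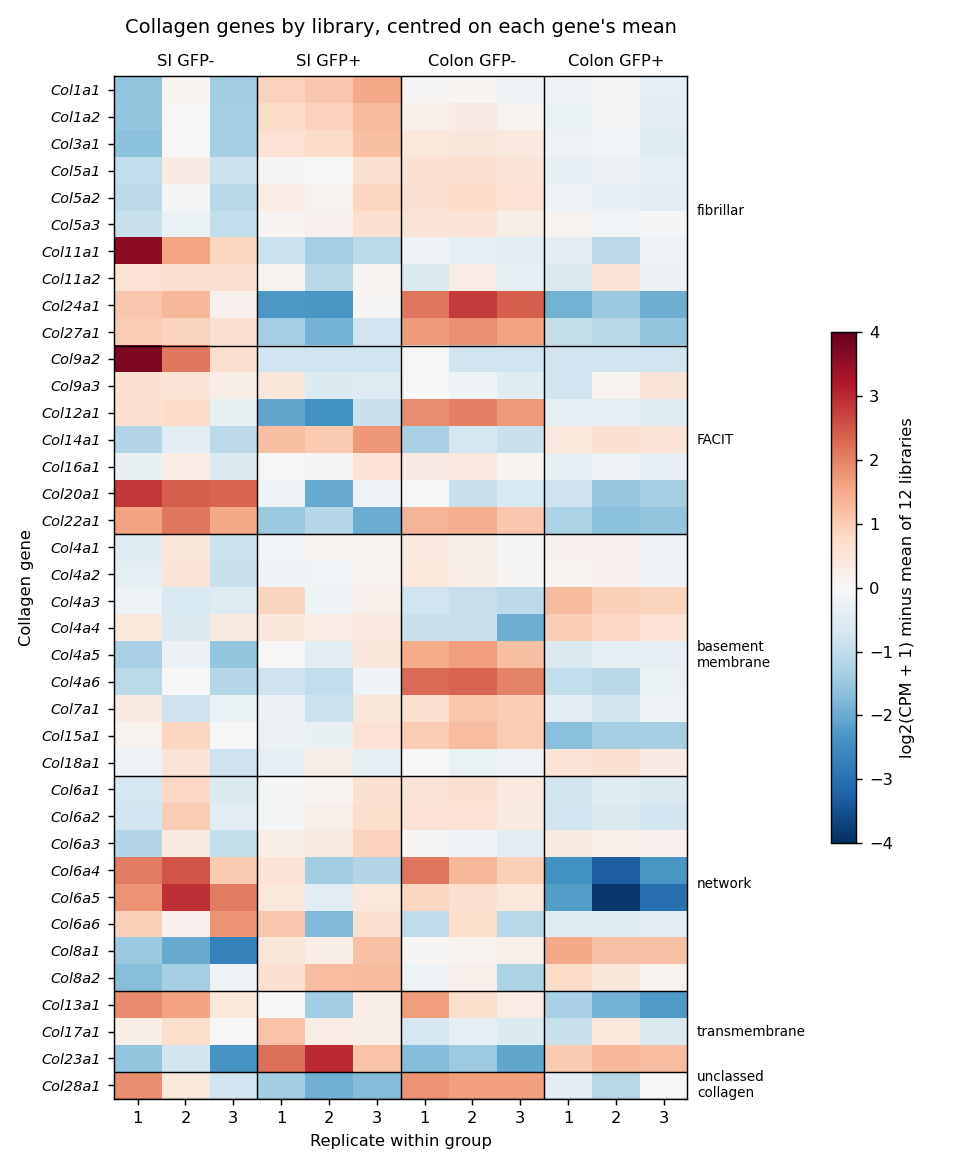
Each tested collagen in each library as log2(CPM + 1) minus its mean over 12 libraries, grouped by class. Col1a1, Col1a2 and Col3a1 are highest in the 3 GFP-positive small intestinal libraries, and GFP-negative replicate 2 of the small intestine lies above its 2 partners.

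Among the fibrillar collagens, which make the load-bearing fibres, Col1a1, Col1a2, Col3a1, Col5a2 and Col5a3 rose with GFP in the small intestine and were not called in colon. Of 10 tested members 5 rose and 2 fell in small intestine, beside 10.9% of all tested genes called there. In colon 0 rose and 2, Col24a1 and Col27a1, fell (edgeR), beside 8.69% of all tested genes called. At an unadjusted p under 0.05, 0 were higher and 4 lower there, with 0 and 4 called by DESeq2 and 0 and 3 by limma-voom. The class medians were 0.82 and -0.57 on the log2 scale. Col1a1, the main chain of type I collagen (ENSMUSG00000001506, GRCm38 chr11:94936224-94953042), measured 1568, 4945 and 1754 CPM in the GFP-negative libraries of the small intestine, against 8727, 9811 and 13216 CPM in its GFP-positive libraries. Every GFP-positive library lay above every GFP-negative one, with GFP-negative replicate 2 nearest. The log2 fold change was 1.94 ± 0.40 (SE), adjusted p = 0.00749, and it was 2.68 without that library. In colon Col1a1 measured 4792, 4861 and 4111 against 4039, 4815 and 3531 CPM, overlapping levels with a log2 fold change of -0.15 ± 0.38.

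Col1a2, the second chain of type I collagen, followed Col1a1. It measured 1237, 3596 and 1436 against 6011, 6785 and 8678 CPM in small intestine (log2 fold change 1.78 ± 0.36, adjusted p = 0.00746). In colon the GFP-positive libraries were lower without overlap, at 4161, 4519 and 4008 against 3005, 3525 and 2720 CPM, but the change was not called (-0.46 ± 0.35, adjusted p = 0.559). The GFP effect was lower in colon than in small intestine by a log2 difference of -2.23 (adjusted p = 0.0425). That call was kept in 1 of 12 fits that left out a library, and leaving out colon GFP-negative replicate 2 gave an adjusted p of 0.122.

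Col3a1, the homotrimeric chain of type III collagen that runs with type I in soft tissue (chr1:45311538-45349706), reached 3135, 9680 and 3851 against 14392, 15972 and 22235 CPM in small intestine. It rose by a log2 fold change of 1.66 ± 0.38 (adjusted p = 0.0147), and by 2.34 without GFP-negative replicate 2. The colon groups were reversed in order and apart, at 12957, 13261 and 12578 against 8435, 9021 and 6817 CPM, without a call (-0.68 ± 0.38, adjusted p = 0.369). The effects differed by -2.33 (adjusted p = 0.0451), a call kept in 1 of 12 such fits (0.127 when colon GFP-positive replicate 3 was left out). Its promoter is shown because Col3a1 is the most abundant collagen here. The sequence is the 250 bases before the RefSeq start (GRCm38.p6, chr1:45311288-45311537, plus strand), 5′ to 3′, with a TATAAA match in capitals:
Col3a1: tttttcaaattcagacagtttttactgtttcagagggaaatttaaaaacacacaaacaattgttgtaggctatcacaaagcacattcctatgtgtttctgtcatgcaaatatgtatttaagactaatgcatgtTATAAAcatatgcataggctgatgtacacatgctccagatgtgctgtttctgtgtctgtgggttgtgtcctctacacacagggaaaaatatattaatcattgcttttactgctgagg
Such a match on either strand stood in 5 of 38 collagen windows and in 12.4% of 32851 windows of this length from RefSeq promoters.

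Type V collagen starts and limits the thickness of type I fibres, and its 3 chains moved by smaller steps. Col5a1 measured 565, 1397 and 611 against 1154, 1143 and 1727 CPM in small intestine, overlapping and not called (log2 fold change 0.65 ± 0.32, adjusted p = 0.243). Without GFP-negative replicate 2 it was called, at 1.199 (adjusted p = 0.00297). Its colon levels were 1719, 1733 and 1610 against 888, 955 and 881 CPM, lower without overlap and not called (-0.89 ± 0.32, adjusted p = 0.116). Col5a2 stood at 380, 757 and 363 against 964, 879 and 1450 CPM in small intestine and rose by 1.13 ± 0.29 (adjusted p = 0.0252). Its colon levels ran the other way, at 1208, 1321 and 1194 against 689, 638 and 573 CPM (-0.97 ± 0.29, adjusted p = 0.0597). The difference of the effects was -2.10 (adjusted p = 0.0252, and 0.0508 with a replicate block). Col5a3 measured 89.2, 140 and 83.8 against 177, 188 and 263 CPM in small intestine, a rise of 1.00 ± 0.23 (adjusted p = 0.0130). Colon levels were 238, 247 and 198 against 183, 154 and 164 CPM, lower without a call (-0.45 ± 0.23, adjusted p = 0.311), and the effects differed by -1.45 (adjusted p = 0.0389, and 0.0589 with the block). Without colon GFP-negative replicate 2 the adjusted p of these differences was 0.0770 for Col5a2 and 0.118 for Col5a3. Of 6 fits without a library, the small intestinal rise was kept in 3 for Col5a2 and 5 for Col5a3, with adjusted p of up to 0.0961 and 0.0519, both without GFP-positive replicate 3. Col5a2 and Col5a3 were also higher in colon than small intestine among GFP-negative cells, by 1.31 ± 0.29 (adjusted p = 0.0279) and 1.12 ± 0.23 (adjusted p = 0.0181). Without colon GFP-negative replicate 2 these had adjusted p of 0.0989 and 0.0720.

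The small intestinal calls of Col1a1, Col1a2, Col3a1, Col5a2 and Col5a3 were lost when only the 6 small intestinal libraries were fitted, where Col1a1 had an adjusted p of 0.0764. Fibroblast markers moved with these chains in small intestine but not in colon. Their summed level was 5544, 13384.5 and 6467 CPM in GFP-negative and 24471 to 38362.5 CPM in GFP-positive small intestine, with 9 of 12 markers called higher and 0 lower. In colon the sum was 9628 to 12862 against 14345 to 15777 CPM, with 1 marker higher and 2 lower. The sum was thus higher in GFP-positive colon, where Col1a2, Col3a1, Col5a2 and Col5a3 were lower without overlap or a call. The part of fibroblast markers in the collagen result was not tested.

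**Figure D4:**
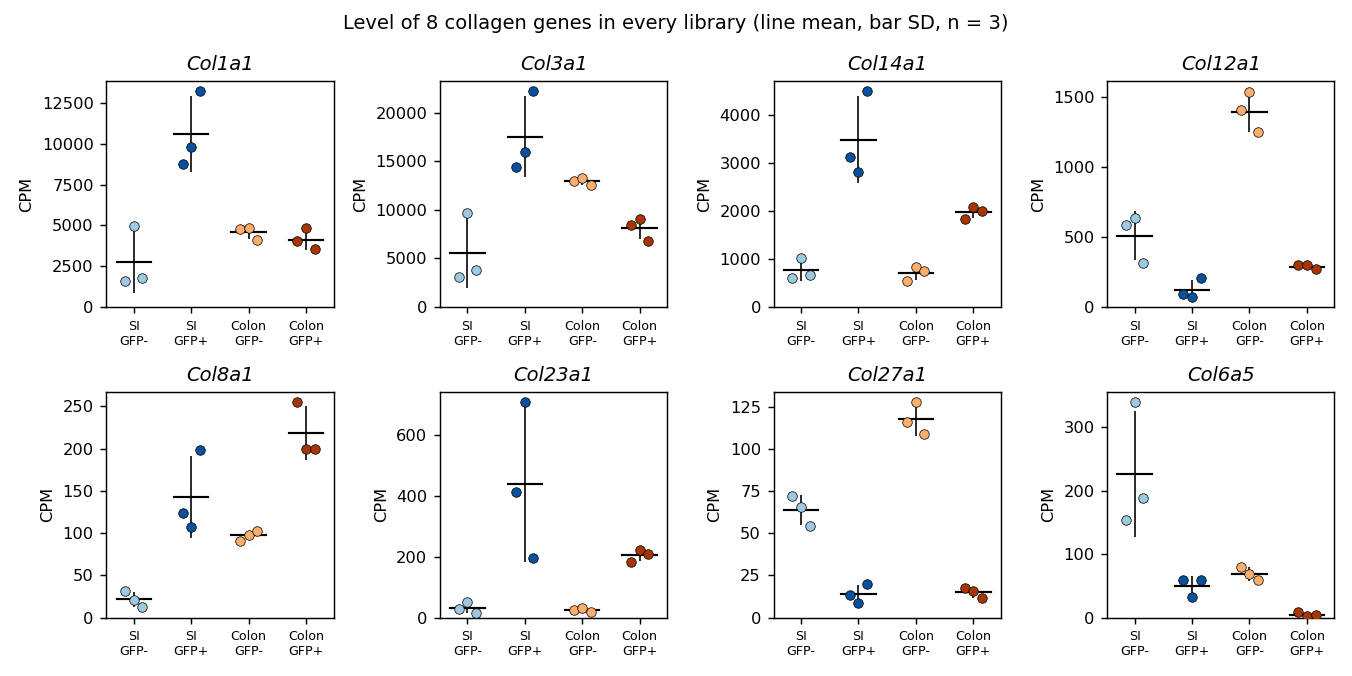
CPM of 8 collagens in each library (points), with the group mean (line) and SD (bar) of 3 libraries. Col14a1, Col8a1 and Col23a1 are higher, and Col12a1, Col27a1 and Col6a5 lower, in GFP-positive libraries of both tissues, while Col1a1 and Col3a1 are higher in GFP-positive libraries of the small intestine.

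Of the minor fibrillar collagens, Col27a1 fell in both tissues, Col24a1 in colon and Col11a1 in small intestine. Col27a1, a cartilage-type fibrillar collagen, measured 71.8, 65.5 and 54.0 against 13.2, 8.77 and 19.7 CPM in small intestine and fell by 2.20 on the log2 scale (SE 0.27, adjusted p = 5.17e-04). The colon libraries held 116, 128 and 109 against 17.8, 15.7 and 11.4 CPM and fell by 2.97 (SE 0.28, adjusted p = 8.47e-05). The groups lay far apart in both tissues, and both calls were kept in every alternative and every fit without a library. Col24a1, also a minor fibrillar chain, measured 27.1, 43.9 and 33.3 against 0.769, 1.32 and 0.686 CPM in colon and fell by 5.22 (SE 0.98, adjusted p = 0.00663). In small intestine 2 GFP-positive libraries were near 0 and the third was not, at 12.7, 15.2 and 6.27 against 0.333, 0.296 and 5.67 CPM, and the change was not called (-2.49 ± 0.87, adjusted p = 0.0979). Col11a1, known from cartilage and ear, averaged 3.87 CPM over all libraries and fell in small intestine (log2 fold change -5.82 ± 1.05, adjusted p = 0.00372). It was also lower in colon than small intestine among GFP-negative cells (-3.62 ± 0.92, adjusted p = 0.0465, and 0.274 without small intestine GFP-negative replicate 1). Col11a2 stayed between 0.296 and 3.34 CPM and was not called in any comparison.

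Among FACIT collagens, Col14a1 rose and Col12a1 fell with GFP in both tissues. Of 7 tested members 1 rose and 4 fell in small intestine, and 1 rose and 2 fell in colon, with medians of -2.07 and -0.89. The shares of all tested genes called were 10.9% and 8.69%. Col14a1, a fibre-coating collagen of loose connective tissue, measured 612, 1015 and 666 against 3127, 2812 and 4506 CPM in small intestine. The colon libraries held 551, 838 and 742 against 1833, 2081 and 1997 CPM. All GFP-positive libraries lay above all GFP-negative ones, with rises of 2.19 ± 0.28 (adjusted p = 5.53e-04) and 1.47 ± 0.27 (adjusted p = 0.00430). Both were kept in every fit without a library and every alternative.

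Col12a1, a related fibre-coating chain known from dense tissue such as tendon, measured 583, 634 and 313 against 89.5, 70.4 and 204 CPM in small intestine and fell by 2.07 (SE 0.37, adjusted p = 0.00355). Its colon libraries held 1404, 1534 and 1248 against 299, 298 and 269 CPM and fell by 2.27 (SE 0.37, adjusted p = 0.00222). It was thus low in all GFP-positive libraries and highest in GFP-negative colon, where it exceeded GFP-negative small intestine by 1.45 ± 0.36 (adjusted p = 0.0443, 0.0594 with a replicate block and 0.134 without colon GFP-negative replicate 2). On the length-scaled TPM, the ratio of Col14a1 to Col12a1 was 1.91, 3.01 and 4.10 in GFP-negative and 66.3, 80.7 and 37.3 in GFP-positive small intestine. In colon the ratio was 0.769, 1.07 and 1.17 against 12.1, 14.2 and 14.2. The GFP groups did not overlap in either tissue, and the smallest exact two-sided permutation p for 3 against 3 is 0.1.

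Col22a1, which marks junctions between muscle and tendon or skin appendages, fell in both tissues from low levels. It measured 11.2, 16.0 and 10.3 against 0.416, 0.788 and 0 CPM in small intestine (log2 fold change -4.87 ± 0.72, adjusted p = 0.00121). The colon levels were 9.24, 9.82 and 7.47 against 0.659, 0.264 and 0.343 CPM (-4.33 ± 0.72, adjusted p = 0.00230). Col20a1, a little studied FACIT chain, was highest in GFP-negative small intestine, at 74.5, 55.0 and 53.1 CPM, with 8.32, 1.68 and 8.39 CPM in GFP-positive cells. It fell there by 3.31 (SE 0.51, adjusted p = 0.00162). In colon it measured 9.97, 4.80 and 6.08 against 5.05, 2.77 and 3.31 CPM without a call (-0.89 ± 0.50, adjusted p = 0.377), and GFP-negative colon was lower than GFP-negative small intestine by 3.13 on the log2 scale (adjusted p = 0.00631). The difference between its GFP effects, 2.42 ± 0.69, was not called (adjusted p = 0.0976). Col9a2, a cartilage FACIT chain, had a mean of 10.2 CPM in GFP-negative small intestine and 0 counts in the 3 GFP-positive libraries, so it was at least 104-fold lower, taking 3 counts summed over those libraries as the floor. Its call there (adjusted p = 0.0213) was kept in 2 of 6 fits without a library and was at 0.0679 without GFP-negative replicate 1.

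Col9a3 and Col16a1 were not called. Enteric glia markers moved with Col20a1, Col9a2 and Col11a1 in small intestine, where 7 of 7 fell and their sum was 163 to 431 CPM in GFP-negative and 1.42 to 6.01 CPM in GFP-positive libraries, with Foxd3 at 0 counts in the latter. In colon the sum was 19.0 to 64.1 against 2.51 to 4.57 CPM, with 3 of 7 lower. Several marker lists fell without overlap in both tissues, as Col12a1 and Col22a1 did. Smooth muscle markers had sums of 1559 to 4266 against 837 to 952 CPM in small intestine (6 of 8 lower). In colon their sums were 2990 to 3911 against 525 to 631 CPM (7 of 8 lower). Markers of interstitial cells of Cajal (Kit, Ano1 and Etv1) summed to 70.4 to 91.2 against 12.4 to 39.8 CPM in small intestine. In colon these summed to 107.9 to 187 against 21.4 to 46.9 CPM. Enteric glia and blood endothelial markers also fell without overlap in both tissues. The part of these lists in the collagen results was not tested.

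In the basement membrane class, the ubiquitous type IV chains Col4a1 and Col4a2 were high in all groups and were not called, whereas the tissue-restricted chains changed with GFP in colon. In small intestine 0 of 9 members were called (edgeR; at an unadjusted p under 0.05, 2 were higher and 0 lower, with 1 higher by DESeq2 and 0 by limma-voom). In colon 2 rose and 3 fell, and the medians were 0.07 and -0.21. These counts stand beside 10.9% of all tested genes called in small intestine and 8.69% in colon. Type IV chains lie as head-to-head gene pairs on separate chromosomes: Col4a1 with Col4a2 (transcribed starts overlapping by 22 bases by the annotation), Col4a3 with Col4a4 (71 bases apart) and Col4a5 with Col4a6 (1308 bases apart).

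Col4a1, the main type IV chain, measured 1447, 2876 and 1134 against 1928, 2289 and 2215 CPM in small intestine and 2707, 2473 and 2026 against 2362, 2331 and 1842 CPM in colon. The groups overlapped in both tissues, with log2 fold changes of 0.24 ± 0.31 and -0.14 ± 0.31. Its partner Col4a2 measured 841, 1564 and 587 against 960, 1001 and 1188 CPM in small intestine and 1463, 1309 and 1114 against 1151, 1217 and 992 CPM in colon (0.07 ± 0.30 and -0.21 ± 0.30). On the TPM scale the ratio of Col4a1 to Col4a2 stayed between 2.46 and 3.33 over the 12 libraries. Without small intestine GFP-negative replicate 2, Col4a1 was called higher in GFP-positive small intestine (0.74, adjusted p = 0.0351).

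Col4a3 and Col4a4, chains best known from the filter membrane of the kidney, rose together in colon. Col4a3 (chr1:82586921-82722059, plus strand) measured 4.55, 4.11 and 3.67 against 22.3, 17.7 and 16.9 CPM in colon and rose by 2.20 ± 0.33 (adjusted p = 0.00138). In small intestine it measured 7.33, 5.33 and 5.79 against 16.7, 7.49 and 10.2 CPM, higher by a narrow gap and not called (0.90 ± 0.32, adjusted p = 0.101). Col4a4 (chr1:82448423-82586849, minus strand) measured 4.25, 4.23 and 1.52 against 18.2, 16.2 and 13.5 CPM in colon and rose by 2.26 ± 0.41 (adjusted p = 0.00400). Its small intestinal libraries overlapped, at 11.9, 5.54 and 11.4 against 12.1, 10.8 and 11.7 CPM (0.27 ± 0.39, adjusted p = 0.753). The difference of GFP effects was not called for either (1.31 and 1.99, adjusted p = 0.184 and 0.0897), but that of Col4a4 was called without small intestine GFP-negative replicate 2 (2.26, adjusted p = 0.0244). Both colon calls were kept in every fit without a library and were lost on the deposited log2 scale. The Col4a3 locus has an antisense non-coding gene, so its counts are uncertain where counting ignores strand. This limit also holds for Col5a1, Col22a1, Col4a2, Col15a1 and Col6a4, whose exons overlap a non-coding gene on the other strand. Exons of Col3a1 and Col20a1 overlap one on the same strand. Endothelial markers moved with Col4a3 and Col4a4 in colon, where 7 of 7 pan-endothelial markers rose. Their sum was 188 to 642 against 2392 to 2783 CPM. In small intestine that sum was 541 to 1879 against 789 to 2715 CPM, and the GFP groups overlapped. Their part in the result was not tested.

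Col4a5 and Col4a6, chains found in basement membranes of smooth muscle, fell together in colon. Col4a5 (chrX:141475385-141689234, plus strand) measured 291, 328 and 241 against 68.9, 78.3 and 82.0 CPM in colon and fell by 1.91 (SE 0.33, adjusted p = 0.00286). In small intestine it measured 41.5, 86.9 and 34.7 against 102, 74.7 and 143 CPM, overlapping (0.96 ± 0.32, adjusted p = 0.0775). Without GFP-negative replicate 2 it was called higher there (1.49, adjusted p = 0.00303). Col4a6 (chrX:141165403-141474076, minus strand) measured 124, 129 and 102 against 12.1, 11.0 and 20.5 CPM in colon and fell by 3.02 (SE 0.38, adjusted p = 4.63e-04). In small intestine it measured 11.2, 25.4 and 10.8 against 13.5, 12.2 and 22.3 CPM, overlapping (0.01 ± 0.36). Col4a6 was thus high in the 3 GFP-negative colon libraries, with the other 9 libraries between 10.8 and 25.4 CPM. The effects differed between tissues by -2.87 for Col4a5 (adjusted p = 0.0109) and -3.03 for Col4a6 (adjusted p = 0.0153). The first was kept in 12 of 12 fits without a library and the second in 11, with 0.0504 without colon GFP-negative replicate 2. Among GFP-negative cells both were higher in colon, by 2.39 ± 0.33 (adjusted p = 0.00288) and 2.90 ± 0.38 (adjusted p = 0.00201).

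The sequences before the divergent starts of this pair are shown because the pair fell together. They are RefSeq promoter windows of GRCm38.p6 without bases that RefSeq or GENCODE places in a transcript. Col4a6 is chrX:141474096-141474326 (minus strand, 231 bases) and Col4a5 is chrX:141475169-141475369 (plus strand, 201 bases), each 5′ to 3′, with a CCAAT match in capitals in the latter:
Col4a6: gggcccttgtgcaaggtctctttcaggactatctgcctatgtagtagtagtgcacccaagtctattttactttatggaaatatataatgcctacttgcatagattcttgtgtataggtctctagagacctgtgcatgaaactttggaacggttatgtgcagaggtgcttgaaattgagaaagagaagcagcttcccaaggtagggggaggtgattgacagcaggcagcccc
Col4a5: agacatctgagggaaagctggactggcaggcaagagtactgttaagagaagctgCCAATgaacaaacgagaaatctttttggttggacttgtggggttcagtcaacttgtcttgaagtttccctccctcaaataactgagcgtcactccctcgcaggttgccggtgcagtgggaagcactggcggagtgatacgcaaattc
The motif searches covered both strands. The Col4a6 window held none of the 3 motifs named here. A CCAAT match stood in 13 of 38 collagen windows of 250 bases and in 33.8% of all 32851 windows.

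**Figure D5:**
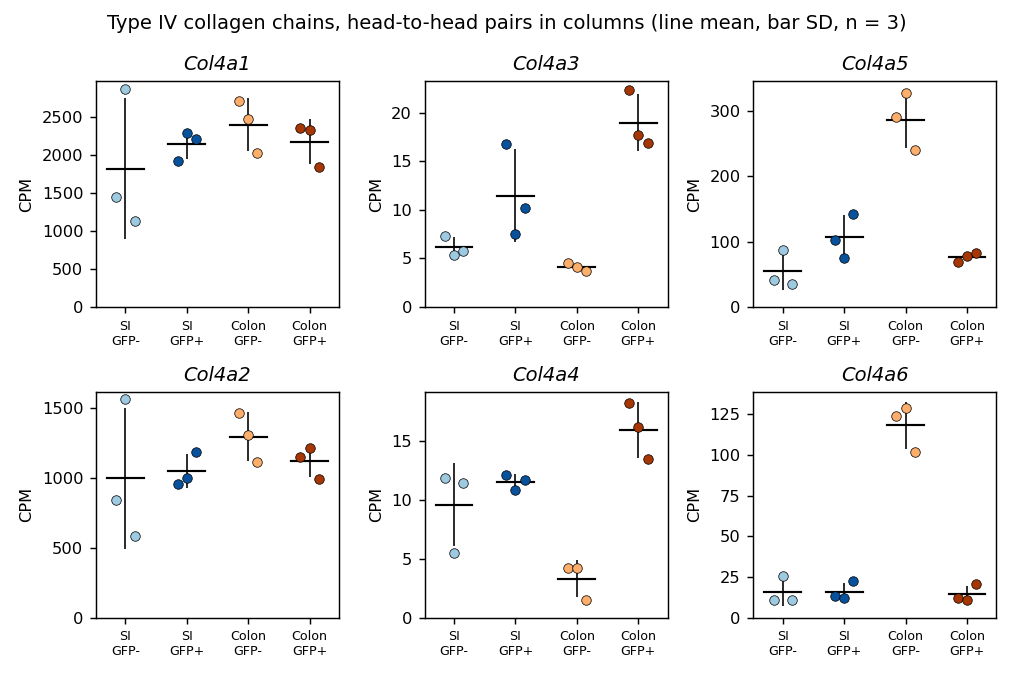
CPM of the 6 type IV chains by library (points) with group mean (line) and SD (bar) of 3 libraries, each column of panels a head-to-head gene pair. Col4a1 and Col4a2 overlap between GFP groups, Col4a3 and Col4a4 are highest in GFP-positive colon, and Col4a5 and Col4a6 are highest in GFP-negative colon (241 to 328 and 102 to 129 CPM).

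Col15a1 and Col18a1 are related collagens of the outer basement membrane zone, and they parted in colon. Col15a1 measured 846, 998 and 847 against 132, 168 and 167 CPM in colon and fell by 2.53 (SE 0.30, adjusted p = 3.86e-04). In small intestine it measured 468, 772 and 412 against 359, 341 and 634 CPM, overlapping (-0.31 ± 0.28, adjusted p = 0.583), and the effects differed by -2.22 (adjusted p = 0.0196). That difference was kept in 9 of 12 fits without a library and had an adjusted p of 0.0670 without colon GFP-negative replicate 2. Col15a1 was also lower in GFP-positive colon than GFP-positive small intestine (-1.52 ± 0.29, adjusted p = 0.00986, and 0.0577 without colon GFP-positive replicate 1). That call was lost on the deposited log2 scale. Col18a1, the source of endostatin, ranged from 329 to 904 CPM and was not called. Its colon mean was 529 CPM (SD 54.5) in GFP-negative and 836 CPM (SD 83.3) in GFP-positive libraries. In small intestine the means were 561 CPM (SD 257) and 536 CPM (SD 151). On the TPM scale the ratio of Col15a1 to Col18a1 was 0.579, 0.860 and 0.737 in GFP-negative and 0.158, 0.0925 and 0.0893 in GFP-positive colon, with no overlap. By counts per kilobase of exon it was 1.58, 2.26 and 1.84 against 0.169, 0.206 and 0.248.

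Markers of telocytes, subepithelial fibroblasts that touch the epithelium, moved with Col4a5, Col4a6 and Col15a1 in colon. Their sum over 8 genes was 1243 to 1353 CPM in GFP-negative and 396 to 475 CPM in GFP-positive colon, with 7 lower. In small intestine it was 384 to 694 against 267 to 424 CPM. Smooth muscle markers fell in colon as given above, and in GFP-negative cells their sums overlapped between tissues. Pericyte markers (7 genes) summed to 284 to 585 against 138 to 159 CPM in colon. In small intestine they summed to 450 to 1563 against 362 to 485 CPM, overlapping. The part of these lists in these results was not tested. Col7a1, the anchoring fibril collagen, stayed between 0.394 and 4.45 CPM and was not called.

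Among network-forming collagens, the abundant type VI chains Col6a1, Col6a2 and Col6a3 were not called, while Col6a4 and Col6a5 fell and Col8a1 rose in both tissues. Of 8 tested members 2 rose and 2 fell in small intestine, and 1 rose and 2 fell in colon, beside 10.9% and 8.69% of all tested genes called. The medians were 0.18 and -0.76. Col6a1 and Col6a2 lie on the same strand of chromosome 10 and are needed with a further chain for a type VI filament. Col6a1 measured 852, 2449 and 928 against 1317, 1444 and 2082 CPM in small intestine, overlapping (0.20 ± 0.35). Its colon levels were 1972, 2111 and 1800 against 812, 975 and 922 CPM, far apart but not called (-1.12 ± 0.36, adjusted p = 0.0789). Col6a2 measured 965, 3326 and 1201 against 1591, 1910 and 2665 CPM in small intestine and 2475, 2470 and 2132 against 956, 1095 and 971 CPM in colon. Its log2 fold changes were 0.17 ± 0.39 and -1.23 ± 0.39 (adjusted p = 0.854 and 0.0770), and its colon groups did not overlap either.

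Col6a3, the usual large chain of the filament, measured 932, 2681 and 1065 against 2512, 2675 and 3959 CPM in small intestine (0.97 ± 0.36, adjusted p = 0.117). In colon it measured 2129, 1901 and 1524 against 2642, 2417 and 2342 CPM (0.41 ± 0.36, adjusted p = 0.614). On the TPM scale the ratio of Col6a3 to Col6a1 was 0.879, 0.719 and 0.957 in GFP-negative and 1.36, 1.23 and 1.28 in GFP-positive small intestine. In colon it was 0.877, 0.669 and 0.649 against 2.27, 1.65 and 1.79. The ratio was thus above 1 in the 6 GFP-positive libraries and below 1 in the 6 GFP-negative ones, while the ratio of Col6a1 to Col6a2 stayed between 0.719 and 0.930. Counts per kilobase of annotated exon gave lower ratios of Col6a3 to Col6a1 in the same order, 0.401, 0.401 and 0.420 against 0.698, 0.678 and 0.696 in small intestine and 0.395, 0.330 and 0.310 against 1.19, 0.908 and 0.930 in colon, so that the side of 1 depends on the length used. Without small intestine GFP-negative replicate 2, Col6a1, Col6a2 and Col6a3 were called higher in GFP-positive small intestine (0.87, 0.93 and 1.62, adjusted p = 0.0202, 0.0190 and 0.00131).

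Col6a4 and Col6a5, alternative chains that can take the place of Col6a3, are neighbours on chromosome 9 and fell in both tissues. Col6a4 measured 132, 179 and 65.1 against 45.6, 11.0 and 13.0 CPM in small intestine and fell by 2.43 (SE 0.60, adjusted p = 0.0248). This call was kept in 2 of 6 fits that left out a library, and its adjusted p was 0.0891 when GFP-positive replicate 3 was dropped and 0.0592 when GFP-negative replicate 2 was. Colon libraries held 139, 79.1 and 60.0 against 4.94, 2.24 and 5.37 CPM and fell by 4.45 (SE 0.68, adjusted p = 0.00222). Col6a5 measured 153, 339 and 188 against 58.8, 32.1 and 58.7 CPM in small intestine and 80.5, 68.5 and 58.9 against 8.46, 2.11 and 4.57 CPM in colon. It fell by 2.18 (SE 0.42, adjusted p = 0.00618) and by 3.76 (SE 0.47, adjusted p = 5.49e-04), without overlap. Colon was lower than small intestine in GFP-positive cells (-3.29 ± 0.46, adjusted p = 0.00216) and in GFP-negative cells (-1.71 ± 0.41, adjusted p = 0.0423, and 0.188 without colon GFP-negative replicate 3). The call in GFP-positive cells was lost on the deposited log2 scale. Col6a6, the next gene of the cluster, measured 0.0985 to 12.1 CPM and was not called.

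Type VIII is a short-chain collagen of vessel walls and fibroblasts. Its chain Col8a1 measured 31.1, 21.1 and 12.5 against 123, 107 and 198 CPM in small intestine, a rise of 2.72 ± 0.32 (adjusted p = 3.70e-04) that was kept in every alternative. In colon it measured 91.1, 98.0 and 103 against 255, 200.1 and 199.9 CPM and rose by 1.17 ± 0.30 (adjusted p = 0.0270). The colon call was kept in 1 of 6 fits that left out a library (0.102 when GFP-negative replicate 1 was dropped) and had an adjusted p of 0.0802 with a replicate block. GFP-negative colon exceeded GFP-negative small intestine by 2.16 ± 0.31 (adjusted p = 0.00338). Col8a2, its partner chain, averaged 4.82 CPM and rose in small intestine (2.53 ± 0.70, adjusted p = 0.0352), in 1 of 6 fits without a library and at 0.0981 without GFP-negative replicate 1. In colon Col8a2 was not called (0.95 ± 0.66, adjusted p = 0.505). The Col8a1 promoter is shown as that of a collagen that rose in both tissues, 250 bases before the RefSeq start (GRCm38.p6, chr16:57754738-57754987, minus strand), 5′ to 3′, with CCGCCC, the GC box GGGCGG on the other strand, in capitals at 4 places:
Col8a1: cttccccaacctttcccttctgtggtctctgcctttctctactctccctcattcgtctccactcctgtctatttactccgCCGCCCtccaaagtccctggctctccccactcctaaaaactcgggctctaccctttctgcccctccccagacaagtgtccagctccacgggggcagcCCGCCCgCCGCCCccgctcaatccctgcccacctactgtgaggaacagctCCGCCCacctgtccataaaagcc
A GC box on either strand stood in 22 of 38 collagen windows and in 32.7% of all windows of this length.

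In the transmembrane class 1 of 3 tested members rose in small intestine, and 1 rose and 1 fell in colon (medians 0.46 and 0.89). The shares of all tested genes called were 10.9% and 8.69%. Col23a1, a transmembrane collagen that can be shed from the surface, had the largest rise of any called collagen in both tissues. It measured 29.2, 53.3 and 16.6 against 413, 707 and 197 CPM in small intestine (log2 fold change 3.73 ± 0.49, adjusted p = 8.24e-04). In colon it measured 26.0, 31.5 and 20.4 against 183, 224 and 210.3 CPM (2.98 ± 0.48, adjusted p = 0.00241). Both calls were kept in every alternative and every fit without a library. Lymphatic endothelial markers also rose with GFP, with 6 of 7 called higher in each tissue. Their summed levels were 11218, 14985 and 4302 CPM in the GFP-positive small intestinal libraries. In the GFP-positive colon libraries they were 19047.5, 21049 and 18003 CPM. Among GFP-positive cells these sums were higher in colon, and mean Col23a1 was 439 CPM in small intestine and 206 CPM in colon. Across the GFP-positive small intestinal libraries, Col23a1 (413, 707 and 197 CPM) ran in the same order as these sums. Of 8 blood endothelial markers 6 fell in small intestine, and 5 fell and 1 rose in colon, with sums of 587 to 2179 against 67.0 to 114 CPM in small intestine and 227 to 750 against 118 to 175 CPM in colon. Their part in the rise was not tested.

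Col13a1, a transmembrane collagen of cell junctions and the neuromuscular synapse, measured 22.9, 11.3 and 8.23 against 2.09, 1.06 and 0.571 CPM in colon and fell by 3.49 (SE 0.68, adjusted p = 0.00613). In small intestine it measured 27.1, 22.1 and 9.17 against 6.41, 1.87 and 8.03 CPM, lower by a narrow gap and not called (-1.84 ± 0.61, adjusted p = 0.0755). Col17a1, the hemidesmosome collagen of epithelia, stayed at 3.08 CPM or less and was not called. Col28a1, known from nerve sheaths, measured 14.2, 4.60 and 1.45 against 0.582, 0.0985 and 0.236 CPM in small intestine and fell by 4.36 (SE 0.85, adjusted p = 0.00595). Its colon libraries held 13.5, 12.0 and 12.0 against 2.09, 0.924 and 3.09 CPM and fell by 2.61 (SE 0.75, adjusted p = 0.0482). The colon call was kept in 0 of 6 fits that left out a library, reaching 0.197 when GFP-positive replicate 2 was dropped.

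Several pairs of chains ran together across the 12 libraries on the log2(CPM + 1) scale. Pearson's r was 0.99 for Col6a1 with Col6a2 and for Col1a2 with Col3a1, 0.98 for Col1a1 with Col1a2, 0.96 for Col4a1 with Col4a2 and 0.92 for Col4a5 with Col4a6. It was 0.84 for Col4a3 with Col4a4 and 0.91 for Col6a4 with Col6a5. These are descriptions over 12 libraries that share their groups and normalization. After each group's mean was removed, r was 0.989 for Col6a1 with Col6a2, 0.992 for Col1a2 with Col3a1, 0.884 for Col4a5 with Col4a6, 0.597 for Col6a4 with Col6a5 and 0.426 for Col4a3 with Col4a4. Col14a1 with Col23a1 had an r of 0.92 over the libraries and -0.04 within groups.

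Genes that act on collagen were followed next. Collagen chains are hydroxylated and glycosylated in the endoplasmic reticulum, folded with chaperones, trimmed outside the cell and crosslinked. In small intestine, of 15 modifying enzymes 3 rose and 1 fell, with a list median of 0.66 on the log2 scale, beside 10.9% of all genes called and a median of -0.03. Of 7 chaperone and export genes 3 rose (median 0.83), of 10 processing genes 3 rose and 2 fell (median 0.98), and of 5 crosslinking enzymes 2 rose (median 0.60). In colon the same lists had 1 higher and 1 lower, none called of 7 (edgeR; 1 lower at an unadjusted p under 0.05, 1 lower by DESeq2 and 0 by limma-voom), 2 higher and 1 lower, and 1 lower, with medians of -0.19, -0.32, -0.76 and -0.45, beside 8.69% of all genes called and a median of -0.03. Of 9 collagen receptors 0 were called in small intestine (edgeR; 2 higher and 1 lower at an unadjusted p under 0.05, 1 higher by DESeq2 and 1 by limma-voom) and Itga2, an integrin chain that binds collagen, fell in colon (-1.64 ± 0.47, adjusted p = 0.0492, and 0.201 without GFP-positive replicate 2).

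Plod2, the lysyl hydroxylase that prepares collagen ends for crosslinks, changed in opposite directions. It measured 39.8, 29.9 and 25.4 against 103, 56.4 and 115 CPM in small intestine and 164, 230 and 154 against 81.8, 88.9 and 73.5 CPM in colon. It rose by 1.53 ± 0.27 (adjusted p = 0.00352) and fell by 1.17 (SE 0.27, adjusted p = 0.0155), without overlap, and the effects differed by -2.69 (adjusted p = 0.00541). The colon call was kept in 2 of 6 fits that left out a library (0.0811 when GFP-negative replicate 2 was dropped). Among GFP-negative cells Plod2 was higher in colon by 2.53 ± 0.28 (adjusted p = 0.00112). Lox, which crosslinks collagen and elastin, measured 43.3, 60.3 and 33.3 against 172, 132 and 154 CPM in small intestine and rose by 1.74 ± 0.27 (adjusted p = 0.00162). Colon levels of Lox were 81.4, 88.3 and 78.9 against 86.6, 45.0 and 48.7 CPM, and its effects differed by -2.20 (adjusted p = 0.0159, and 0.0528 without colon GFP-negative replicate 2).

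Pcolce2, an enhancer of procollagen trimming, rose in both tissues. It measured 18.8, 18.0 and 22.7 against 136, 124 and 222 CPM in small intestine and 20.8, 33.9 and 27.4 against 129, 143 and 124 CPM in colon. The rises were 3.02 ± 0.26 (adjusted p = 8.03e-05) and 2.27 ± 0.25 (adjusted p = 2.33e-04). Pcolce and Bmp1, an enhancer and the protease it serves, rose in small intestine (1.72 and 1.05, adjusted p = 0.00537 and 0.0162), the latter with an adjusted p of 0.0579 without GFP-negative replicate 1. Tll1, a protease of the Bmp1 family, measured 2.93, 1.94 and 1.27 against 104, 81.7 and 65.9 CPM in colon and rose by 5.36 ± 0.71 (adjusted p = 0.00101). In small intestine Tll1 overlapped, at 47.5, 20.4 and 7.40 against 58.8, 70.1 and 23.2 CPM, and it was not called there, while with a replicate block its adjusted p was 0.0340.

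Among the other called members, Creb3l1, a transcription factor for secretory cells, and the chaperones Fkbp14 and Fkbp7 rose in small intestine (1.23, 1.23 and 1.06, adjusted p = 0.0149, 0.0248 and 0.0457). Without GFP-positive replicate 3 these had adjusted p of 0.0587, 0.0880 and 0.145, and Loxl1 of 0.122. The prolyl hydroxylases P3h3 and P4ha1 and the crosslinker Loxl1 rose there by 1.37, 0.79 and 1.26 (adjusted p = 0.0238, 0.0446 and 0.0306), and without GFP-negative replicate 3 P3h3 and P4ha1 were at 0.0761 and 0.137. P4ha3, a further prolyl hydroxylase, fell there by 4.80 (adjusted p = 0.0159, and 0.0639 without GFP-negative replicate 1). In colon the glycosyltransferase Colgalt2 rose by 1.69 (adjusted p = 0.00311), and Adamts14, which trims the amino end of procollagen, and the crosslinker Loxl4 fell by 2.32 and 1.52 (adjusted p = 0.00286 and 0.0249). The Loxl4 call was lost without GFP-positive replicate 1 (0.122). Mep1a and Mep1b, meprin proteases of the epithelial brush border, had 0 counts in GFP-positive small intestine, where Mep1b was at least 296-fold and Mep1a at least 10.6-fold lower. The adjusted p of Mep1a was 0.0381, and it was 0.0914 with a replicate block and 0.128 without GFP-negative replicate 3. Epithelial markers moved with both in small intestine, with sums of 219 to 731 against 1.91 to 11.1 CPM, 7 of 8 lower. In colon their sums were 1008 to 2380 against 307 to 1687 CPM, and their part was not tested. Between tissues, Ddr2, a receptor for fibrillar collagen, was higher in colon than small intestine among GFP-negative cells (1.37 ± 0.25, adjusted p = 0.0104, and 0.0525 without colon GFP-negative replicate 3).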

How the data were processed

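Deposited values were made by the authors with Salmon 1.1.0 and R 3.6.1 on build mm10, per the submitters' processing notes. The estimated counts per gene are whole numbers as deposited, and the annotation, rounding and strand setting are not given in the sources used here. The deposited log2 values are log2(TPM + 1), which were turned back to TPM and rescaled to protein-coding genes for shares, ranks and ratios, since these genes held 4.65% to 8.09% of a library's TPM. Symbols came from GENCODE M21 (32001 of 32052 identifiers).

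Counts were fitted with edgeR 4.0.16 (R 4.3.3; TMM, filterByExpr with a minimum count of 10, robust quasi-likelihood), with 1 mean for each of 4 groups over 12 libraries. All adjusted p-values are Benjamini-Hochberg values over 16757 genes, and SE is the log2 fold change divided by the root of F. The 5 comparisons were the GFP effect in each tissue, their difference, and the tissue difference in each GFP state. Alternatives were DESeq2 1.42.0, limma 3.58.1 (voom, and trend on the deposited log2 values), other size factors, no filter, protein-coding genes, only the compared libraries, each library left out, and a replicate block. The block was the replicate number within each tissue for the GFP effects and their difference. For the tissue differences it was the replicate number across tissues, which pairs libraries that the column names do not all link.

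Library values are given for collagens called in at least 1 comparison with a mean of at least 5 CPM and for Col1a1, Col1a2, Col3a1, Col4a1, Col4a2, Col5a1, Col6a1, Col6a2 and Col6a3. In other collagen-related lists up to 4 called genes with the smallest adjusted p per list and comparison are named. Members and lists were chosen with earlier results of these data known. Same-numbered libraries deviated together between the GFP sorts of the small intestine (r of 0.166 to 0.365 over genes) but not of the colon (-0.0102 to 0.124). Column names share a prefix between the GFP sorts of a replicate, and replicate 3 of both tissues has 1 common prefix, but the labels do not say what it marks. Across tissues the replicate 3 libraries correlated at 0.261 (GFP-negative in both), 0.128, 0.0671 and 0.0614, and the fits without the block treat them as independent. Promoters are RefSeq windows of GRCm38.p6 matched by symbol (35 of 44 genes, 38 windows), with bases inside annotated transcripts left out of what is printed. Scripts were tested on simulated data.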

Additional observations from a re-analysis of the deposited data

Results flagged for a closer look

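The GFP effect differed between colon and small intestine for 7 collagens and 6 genes that act on collagen (edgeR's quasi-likelihood test of the difference, Benjamini-Hochberg adjusted). The log2 difference, colon minus small intestine, was -2.23 for Col1a2, -2.33 for Col3a1, -2.10 for Col5a2 and -1.45 for Col5a3 among fibrillar chains. It was -2.87 for Col4a5, -3.03 for Col4a6 and -2.22 for Col15a1 among basement membrane chains. Plod2 (-2.69), Creb3l1 (-2.12) and Lox (-2.20) also had a lower effect in colon. Colgalt2 (2.01), Tll1 (4.35) and Mep1b (8.84) had a higher effect in colon. The value for Mep1b depends on the prior count, since its GFP-positive small intestinal libraries held 0 counts. Of the 13, the Plod2 and Col4a5 differences were called in 12 of 12 fits that left out a library. Without colon GFP-negative replicate 2 the adjusted p rose past the threshold for Col1a2 (0.122), Col5a2 (0.0770), Col5a3 (0.118), Col4a6 (0.0504), Col15a1 (0.0670), Creb3l1 (0.0704), Mep1b (0.0770), Tll1 (0.106) and Lox (0.0528). Without colon GFP-positive replicate 2 it was 0.0903 for Colgalt2, and without colon GFP-positive replicate 3 it was 0.127 for Col3a1.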

How the results depend on the processing

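Of 52 collagen calls over the 5 comparisons, 33 were kept in every fit that left out 1 library, 28 in every other alternative and 23 in all of them. Over all named genes and settings, 3359 of 3816 values kept their side of the threshold, and their direction where called. A further 266 lost a call, 190 gained one and 1 reversed with a call. This was the Mep1a difference of effects, -1.36 with limma-trend on the deposited log2 values, against 4.79. Changes of sign without a call in either fit are among the 3359.

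The collagen count in small intestine (18) was 11 with limma-trend and 11 with only the compared libraries, and that in colon (16) was 26 with only the compared libraries. The difference of effects (7) gave 12 without a filter and 13 with DESeq2. Between GFP-positive cells (2) the counts were 6 without a filter, 10 with DESeq2, 1 with limma-trend, 6 with only the compared libraries and 4 with a replicate block. The limma-trend call was of a collagen higher in colon, and 0 of the 2 main calls were kept there. Between GFP-negative cells (9) they were 14 with DESeq2, 15 with limma-trend and 5 with only the compared libraries. Leaving out 1 library gave 14 to 23 in small intestine, 14 to 15 in colon, 1 to 15 for the difference of effects, 1 to 4 between GFP-positive cells and 4 to 19 between GFP-negative cells. The extremes of 23, 15 and 19 came without small intestine GFP-negative replicate 2, and those of 1 and 4 for the difference and for GFP-negative cells without colon GFP-negative replicate 2. The cause was not tested.

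With the replicate block the counts in small intestine, colon, the difference and GFP-negative cells were 18, 15, 5 and 9. Without the filter all 44 collagens were tested, and of the 6 left out otherwise Col19a1 was called, in small intestine, for the difference and between GFP-negative cells.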
